A study of Mus musculus with 23 samples.

Results

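Retinal organoids fed docosahexaenoic acid (DHA) were compared with organoids fed linoleic acid (LA) at day 26 of differentiation. The comparison comprised 4 libraries, 2 per fatty acid, of the 23 libraries and 9 groups in the series, and they were chosen by their labels for day and supplement. The 2 day 26 libraries of organoids given only bovine serum albumin (BSA), the carrier of both fatty acids, entered the fit as a reference and to estimate the spread between replicates. All cultures came from 1 clone of mouse induced pluripotent stem cells, reprogrammed from embryonic fibroblasts that carried the Nrl-GFP reporter of rod precursors. DHA or LA, bound to BSA, was supplied at 26 µM from day 10. In the same interval every culture, BSA alone included, also received N2 supplement, taurine, 9-cis retinal and insulin-like growth factor 1. No library of day 26 had received FGF1, the growth factor that other groups of the series were given at 200 ng/ml from day 26. The neural retina was dissected from 12 intact organoids for each RNA sample, and directional poly(A) libraries were made from it. The labels call the libraries biological replicates without saying whether they came from separate differentiations, so p-values measure only the spread between these samples.

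DHA is the long omega-3 fatty acid that photoreceptors concentrate in the phospholipids of their outer segment discs, the membrane stacks that hold the visual pigment. LA is a shorter omega-6 fatty acid from the diet and the precursor of arachidonic acid. Both can be burned in mitochondria, both are ligands of the PPAR receptors, and polyunsaturated fatty acids are known to lower the activity of SREBP1, the regulator of fatty acid synthesis. In rods, light activates the visual pigment, transducin and phosphodiesterase in turn, cyclic GMP falls and the cyclic nucleotide-gated channel closes. Arrestin, a receptor kinase, recoverin and the RGS9 complex end the response.

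The 6 day 26 libraries held 16770724 to 18097433 counts, and mitochondrial transcripts made up 3.76% to 4.24% of them. The filter on low counts kept 18939 genes, among them all 16 photoreceptor fate factors and all 19 retinal progenitor genes listed. Levels are given as CPM, the counts scaled to the library's total with TMM factors. Of 10 pluripotency genes 4 passed the filter. The 2 LA libraries differed more from each other (chi-square per degree of freedom 44.1) than the 2 DHA libraries (25.4) or the 2 BSA libraries (12.8). Pairs of 1 DHA and 1 LA library gave 14.9 to 45.1. The first principal component (31.7% of the variance) placed LA replicate 1 and LA replicate 2 at opposite ends, at −42.8 and 35.9, with the other 4 libraries between them. Log2 CPM depended on a gene's GC content with slopes of 0.218 and 0.501 log2 units per 10 percentage points in the 2 DHA libraries and 0.359 to 0.402 in the other 4.

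Many genes of rod phototransduction, the outer segment and the photoreceptor synapse were lower in both DHA libraries than in both LA libraries, but no gene passed the test over all genes. The gene with the smallest p, the rod channel gene Cngb1, stood in DHA at 0.498 times its level in LA. With edgeR's quasi-likelihood (QL) test and Benjamini-Hochberg adjustment, 0 of 18939 genes had an adjusted p under 0.05 (0% in each direction), and the smallest adjusted p was 1. At an unadjusted p under 0.05, 339 genes (1.79%) were lower and 204 (1.08%) were higher in DHA. Together these 543 genes were a smaller share than the 0.05 that this limit allows when no gene differs. DESeq2 on the same counts called 3 genes, all lower in DHA (Cngb1 with adjusted p = 0.00274, Chrnb4 and Ano2 with adjusted p = 0.0429 each), and limma voom called 0. The typical gene's 95% interval extended 0.559 log2 units above and below its estimate (median over genes). That interval is not adjusted for the number of genes, and far larger differences also missed the adjusted threshold. Against BSA, 0 genes passed for either fatty acid. The unadjusted counts were 117 lower (0.618%) and 90 higher (0.475%) for DHA, and 122 lower (0.644%) and 168 higher (0.887%) for LA. These 3 contrasts share libraries. None of the differences below passed after adjustment, and each value is a log2 difference of DHA minus LA with its 95% interval unless stated otherwise.

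**Figure D1:**
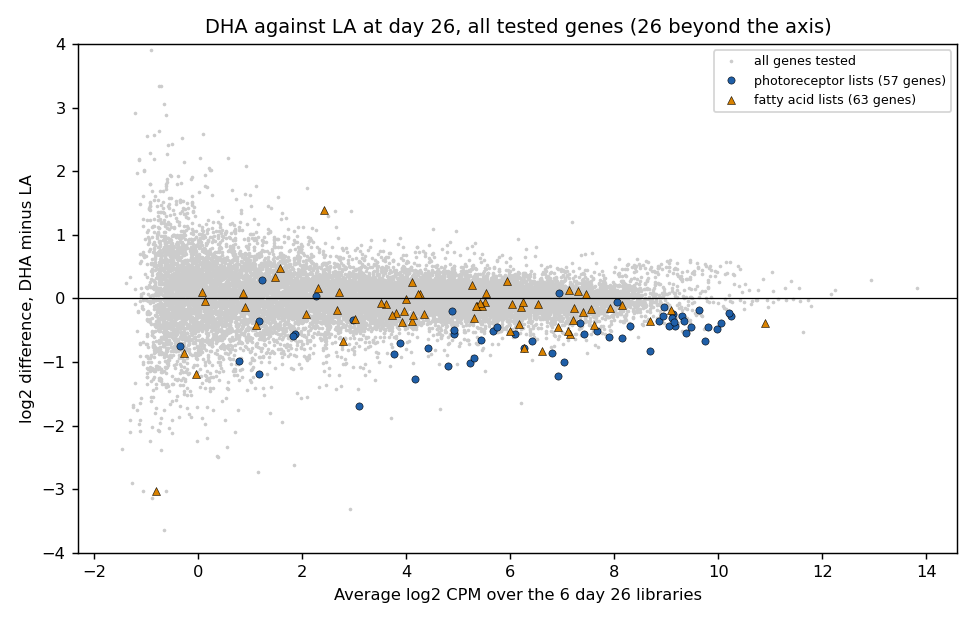
Each point is a gene, with its average log2 CPM over the 6 day 26 libraries (horizontal axis) and its log2 difference of DHA minus LA (vertical axis). Photoreceptor genes (blue, 57 genes) lie mostly below 0. Genes of the 3 fatty acid lists (orange, 63 genes) lie on both sides of 0, but more often below it. The oxidation, desaturase and synthesis lists have 20 of 28, 16 of 19 and 13 of 18 members below 0 (background 48.7%). Their medians are −0.12, −0.15 and −0.28, and 26 genes beyond 4 log2 units are not drawn.

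Cngb1, the gene of the beta subunit of the rod cyclic nucleotide-gated channel (chr8:95239045-95306585 in the deposited table), had the smallest p. It stood at 179 and 186 CPM in LA, at 94.8 and 87.0 in DHA and at 132 and 109 in BSA. Both DHA libraries were thus below all 4 others and both LA libraries above, with a difference of −1.01 [−1.39, −0.62] (edgeR QL unadjusted p = 1.8e-04). Cnga1, the alpha subunit of the same channel, stood at 49.5 and 56.2 CPM in LA, 26.3 and 26.0 in DHA, and 39.9 and 26.1 in BSA (−1.02 [−1.50, −0.53]), so here DHA stood level with the lower BSA library. Ano2, a calcium-activated chloride channel gene of photoreceptor terminals that was in none of the lists, stood at 63.7 and 67.0 CPM in LA, 36.2 and 34.4 in DHA, and 44.9 and 45.7 in BSA (−0.89 [−1.24, −0.54]).

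The RefSeq promoter windows of these 3 channel genes (build GRCm38.p6) are shown as examples chosen because each holds the letters TAATCC, the core bound by homeodomain factors such as CRX. The genes are among the 10 named lower genes with the smallest p. Of the others of these 10, Chrnb4, Nxnl1, Nt5e, Impg1, Nfic and Cpt1a have no TAATCC in the 250 bases before the start, and all 6 had a smaller p than Cnga1. For Ankrd33, the remaining gene, no window was matched. The 250 bases before the transcription start are printed 5′ to 3′ on the gene's strand, and capitals mark TAATCC or its reverse complement. The Cngb1 window (chr8:95306586-95306835, minus strand) has 2 matches, whose first bases are at positions −58 and −25 from the start. The Ano2 window (chr6:125690169-125690418, plus strand, the first of its 3 windows) has 1 match at −59, and the Cnga1 window (chr5:72642753-72643002, minus strand) has 1 at −228.
Cngb1: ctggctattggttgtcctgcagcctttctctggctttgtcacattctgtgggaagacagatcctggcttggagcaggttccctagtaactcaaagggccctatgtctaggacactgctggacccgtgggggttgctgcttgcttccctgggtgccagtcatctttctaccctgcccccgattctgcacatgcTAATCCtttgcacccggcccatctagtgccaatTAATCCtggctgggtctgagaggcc
Ano2: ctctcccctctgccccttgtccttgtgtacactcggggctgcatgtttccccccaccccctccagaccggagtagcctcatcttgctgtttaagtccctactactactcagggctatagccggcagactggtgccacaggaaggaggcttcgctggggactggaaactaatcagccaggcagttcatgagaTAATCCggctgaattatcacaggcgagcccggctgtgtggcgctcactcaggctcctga
Cnga1: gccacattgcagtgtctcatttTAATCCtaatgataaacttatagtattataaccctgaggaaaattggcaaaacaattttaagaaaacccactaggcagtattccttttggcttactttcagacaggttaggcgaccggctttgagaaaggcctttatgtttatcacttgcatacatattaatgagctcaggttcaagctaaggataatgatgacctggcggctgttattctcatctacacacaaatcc
In windows of 250 bases before to 50 after the start, TAATCC on either strand was found in 54 of 310 windows (17.4%) of genes lower in DHA at an unadjusted p under 0.05. It was found in 8 of 167 windows (4.79%) of genes higher in DHA, in 15 of 57 windows (26.3%) of photoreceptor genes, in 6.25% of 16315 windows of tested genes and in 7.06% of all 32851 windows. Windows were matched for 235 of the 338 symbols lower in DHA, 131 of the 204 higher in DHA and 42 of the 57 photoreceptor genes. A gene can have more than 1 window. TGCTGA, part of the element bound by NRL-type factors, which does not overlap TAATCC, was found in 19% of the windows of lower genes, 14.4% of higher genes, 21.1% of photoreceptor genes, 16.3% of tested genes and 19.5% of all windows. These matches describe letters in a window and are not measured binding sites.

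Of 17 tested phototransduction activation genes (18 listed), 7 were lower at an unadjusted p under 0.05 (background 1.79%), 0 were higher (background 1.08%) and 16 lay below 0, with a median difference of −0.67 (−0.32 without LA replicate 2) against 0.008 over all genes. Pde6g, the inhibitory subunit of rod phosphodiesterase, stood at 147 and 157 CPM in LA against 75.4 and 91.3 in DHA and 115 and 83.8 in BSA (−0.87 [−1.31, −0.42]). Its catalytic partner Pde6a stood at 17.6 and 37.0 in LA, 10.0 and 12.8 in DHA, and 16.0 and 14.0 in BSA (−1.26 [−1.99, −0.54]). The LA libraries stood apart from each other for Pde6a, and both still exceeded DHA. Pde6b, the other catalytic subunit, stood at 677 and 559 CPM in LA, 531 and 464 in DHA, and 595 and 482 in BSA (−0.31 [−0.78, 0.15]). Gnat1, the rod transducin, was low in every library (3.20 to 6.10 CPM) and differed by 0.04 [−0.81, 0.89], with overlapping groups. The sign of the Gnat1 value turned when LA replicate 1 or DHA replicate 1 was left out. In bulk RNA, fewer rods and less of these transcripts per rod cannot be told apart.

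**Figure D2:**
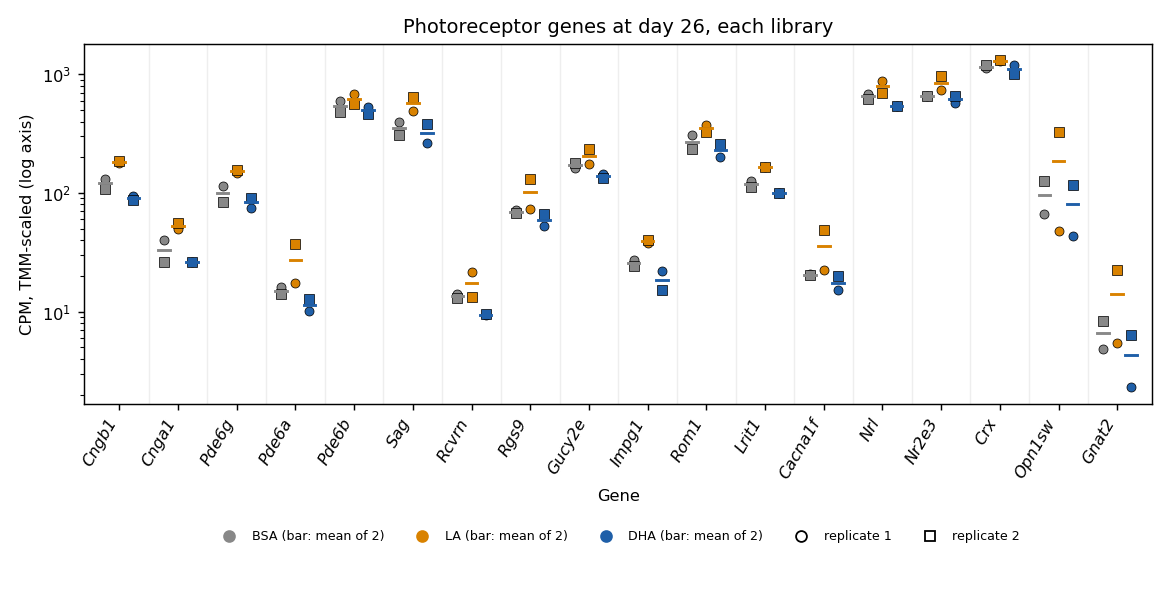
CPM of 18 photoreceptor genes on a log axis, with a symbol for each of the 6 day 26 libraries (grey BSA, orange LA, blue DHA; circle replicate 1, square replicate 2) and a bar at the mean of 2. For Cngb1 the blue symbols (94.8 and 87.0) lie below the grey ones and the orange ones (179 and 186) above, while for Opn1sw and Gnat2 the symbols of 1 group lie far apart.

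Genes that end the light response and restore calcium went the same way. Of 13 tested (14 listed), 6 were lower at an unadjusted p under 0.05 (background 1.79%) and 0 higher (background 1.08%). The median was −0.66 (−0.34 without LA replicate 2). Sag, the rod arrestin, stood at 493 and 647 CPM in LA, 263 and 379 in DHA, and 393 and 310 in BSA (−0.83 [−1.37, −0.28]). Rcvrn, the recoverin gene whose protein restrains that shutoff in a calcium-dependent way, stood at 21.6 and 13.2 in LA, 9.33 and 9.54 in DHA, and 14.1 and 13.1 in BSA (−0.88 [−1.47, −0.29]). DHA was lowest for Rcvrn, but LA replicate 2 stood level with BSA and LA replicate 1 alone stood above it. Rgs9, the GTPase activator of transducin, differed by −0.78 [−1.35, −0.21] and its membrane anchor Rgs9bp by −0.66 [−1.16, −0.17]. Grk1, a photoreceptor receptor kinase, differed by −0.88 [−1.59, −0.18] and Gucy2e, a guanylate cyclase that restores cyclic GMP, by −0.56 [−0.98, −0.13]. Each of these 6 genes was lower in both DHA libraries than in both LA libraries, a pattern that 12.9% of all tested genes shared. Slc24a2, a sodium-calcium exchanger gene, differed by 0.20 [−0.34, 0.73] and was the 1 member above 0.

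Outer segment genes were lower for 6 of 19 tested members (20 listed) at an unadjusted p under 0.05 (background 1.79%). Their median was −0.38 (−0.24 without DHA replicate 2). Impg1, a proteoglycan of the matrix around photoreceptors, stood at 38.1 and 40.0 CPM in LA, 22.1 and 15.2 in DHA, and 27.3 and 24.3 in BSA (−1.07 [−1.55, −0.59]). Rom1, a disc rim protein, stood at 377 and 329, 199 and 260, and 310 and 234 in the same order (−0.62 [−1.10, −0.14]). Its partner Prph2 differed by −0.44 [−0.91, 0.03]. Rp1l1, a protein of the outer segment axoneme, differed by −0.66 [−1.07, −0.24], Cdhr1, a cadherin of the disc margin, by −0.48 [−0.93, −0.03], and Prcd, a disc protein, by −0.41 [−0.80, −0.03]. Fscn2, a photoreceptor fascin that was near the floor at 1.14 to 3.02 CPM, differed by −1.19 [−2.09, −0.28]. Genes of the connecting cilium were closer to 0, with Cep290 at −0.35 [−1.01, 0.31], Rpgr at −0.07 [−0.51, 0.38] and Iqcb1 at 0.21 [−0.20, 0.62], each with overlapping groups. Abca4, the disc transporter that clears retinaldehyde, stood at 512 and 297 CPM in the 2 DHA libraries, which bracketed LA (353 and 379).

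Genes of the photoreceptor ribbon synapse all lay below 0, 16 of 16 (48.7% of all genes did), with a median of −0.39. At an unadjusted p under 0.05, 6 were lower (background 1.79%). Lrit1, a transmembrane protein of the synapse, stood at 166 and 165 CPM in LA, 101 and 101 in DHA, and 127 and 112 in BSA, so that replicates of LA and of DHA were nearly equal and BSA lay between them (−0.72 [−1.08, −0.36]). Cacna1f, the pore of the calcium channel that drives release, stood at 22.6 and 49.0 in LA, 15.1 and 19.9 in DHA, and 20.7 and 20.3 in BSA (−1.03 [−1.76, −0.31]). For Cacna1f the 2 LA libraries were farther apart than DHA and BSA. Slc17a7, which loads glutamate into vesicles, differed by −0.54 [−0.91, −0.17], the complexin gene Cplx4 by −0.72 [−1.26, −0.17] and Egflam, which encodes pikachurin, by −0.55 [−0.95, −0.16]. Its binding partner Dag1 differed by −0.41 [−0.76, −0.06]. Structural ribbon genes differed less, with Ctbp2 at −0.15 [−0.53, 0.23] and Bsn at −0.07 [−0.57, 0.44].

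Transcription factors of photoreceptor fate were lower for 5 of 16 members at an unadjusted p under 0.05 (background 1.79%). Their median was −0.40 (−0.16 without LA replicate 2). Nrl, the rod fate factor, stood at 881 and 699 CPM in LA, 538 and 540 in DHA, and 685 and 625 in BSA (−0.55 [−1.004, −0.10]). Nr2e3, which acts with Nrl, stood at 732 and 968, 578 and 661, and 662 and 657 (−0.46 [−0.93, 0.02]). DHA replicate 2 was level with BSA for Nr2e3, whereas both DHA libraries were below BSA for Nrl. Crx and Otx2, which act earlier and in both photoreceptor types, differed by −0.23 [−0.69, 0.23] and −0.18 [−0.66, 0.30], and the Otx2 groups overlapped. Samd7 and Samd11, which take part in Polycomb silencing in rods, differed by −0.52 [−0.96, −0.07] and −0.60 [−1.17, −0.04]. The retinoid receptor gene Rxrg differed by −0.51 [−0.93, −0.10] and the thyroid hormone receptor gene Thrb, which sets green opsin in cones, by −0.45 [−0.85, −0.05]. Thrb in DHA (45.3 and 50.5 CPM) stood level with BSA (44.2 and 51.9).

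Cone opsin and cone transducin differed strongly between replicates of one group. Of 14 tested members (15 listed), 4 were lower at an unadjusted p under 0.05 (background 1.79%) and the median was −0.48, which came to −0.05 without LA replicate 2. The groups did not overlap for 3 members, all lower in DHA (background 12.9%). Opn1sw, the short-wave cone opsin, stood at 48.2 and 326 CPM in the 2 LA libraries, 43.7 and 118 in DHA, and 66.0 and 125 in BSA (−1.21 [−2.83, 0.40]), and without LA replicate 2 the value turned to 0.74. Gnat2, the cone transducin, stood at 5.41 and 22.5 in LA, 2.30 and 6.36 in DHA, and 4.86 and 8.32 in BSA (−1.69 [−3.12, −0.26]). LA replicate 2 was the highest library for both genes, and replicate 1 was the lower library in all 3 groups. Cngb3, the cone channel subunit, differed by −0.56 (edgeR QL unadjusted p = 0.0497) and Arr3, the cone arrestin, by −0.34 [−1.08, 0.39]. Opn1mw, the green cone opsin, had at most 2 counts in any library and was not tested. The visual cycle list, which recycles retinal, had 2 of 10 tested members (12 listed) lower at an unadjusted p under 0.05 (background 1.79%). These were Rdh8 (−0.56 [−0.95, −0.16]) and Rbp3 (−0.52 [−1.03, −0.02]). Rbp3, the retinoid carrier of the space around photoreceptors, stood at 4006 and 3356 CPM in LA, 2595 and 2528 in DHA, and 3293 and 3270 in BSA.

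Rod, cone and shared photoreceptor genes were then joined in 1 list. Many of its members are also in the phototransduction, shutoff, outer segment and fate factor lists above, so these lists are not independent. For the 18 rod genes alone the median was −0.53, and it lay between −0.45 and −0.60 without any 1 DHA or LA library. Of 59 members, 57 were tested (Opn1mw and Guca1a were too low), 23 were lower in DHA at an unadjusted p under 0.05 (40.4%, background 1.79%), 0 were higher and 54 lay below 0. The groups did not overlap for 37 members lower in DHA (background 12.9%) and 1 higher (background 11%). Their summed level was 19160 and 20380 CPM in LA, 15300 and 14470 in DHA, and 16960 and 16300 in BSA, so BSA lay between the fatty acids. Both DHA libraries were below all other libraries for 16 members (background 5.69%), and both LA libraries were above all others for 21 (background 5.13%). The opposite orders were found for 1 member with both DHA libraries highest (background 4.17%) and 0 with both LA libraries lowest (background 4.69%). Against BSA, 50 members lay below 0 in DHA (background 49.8%) with a median of −0.20, and 55 lay above 0 in LA (background 49.1%) with a median of 0.29. At an unadjusted p under 0.05, 2 were lower in DHA than in BSA (background 0.618%) and 7 higher in LA than in BSA (background 0.887%). The median of DHA minus LA was −0.51. It was −0.33 without LA replicate 2 and between −0.46 and −0.62 without any other day 26 library. The number lower at an unadjusted p under 0.05 was 5 of 58 when the spread came from all 23 libraries. Other cell types that moved in the same libraries are given below, and their part in these values was not tested.

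**Figure D3:**
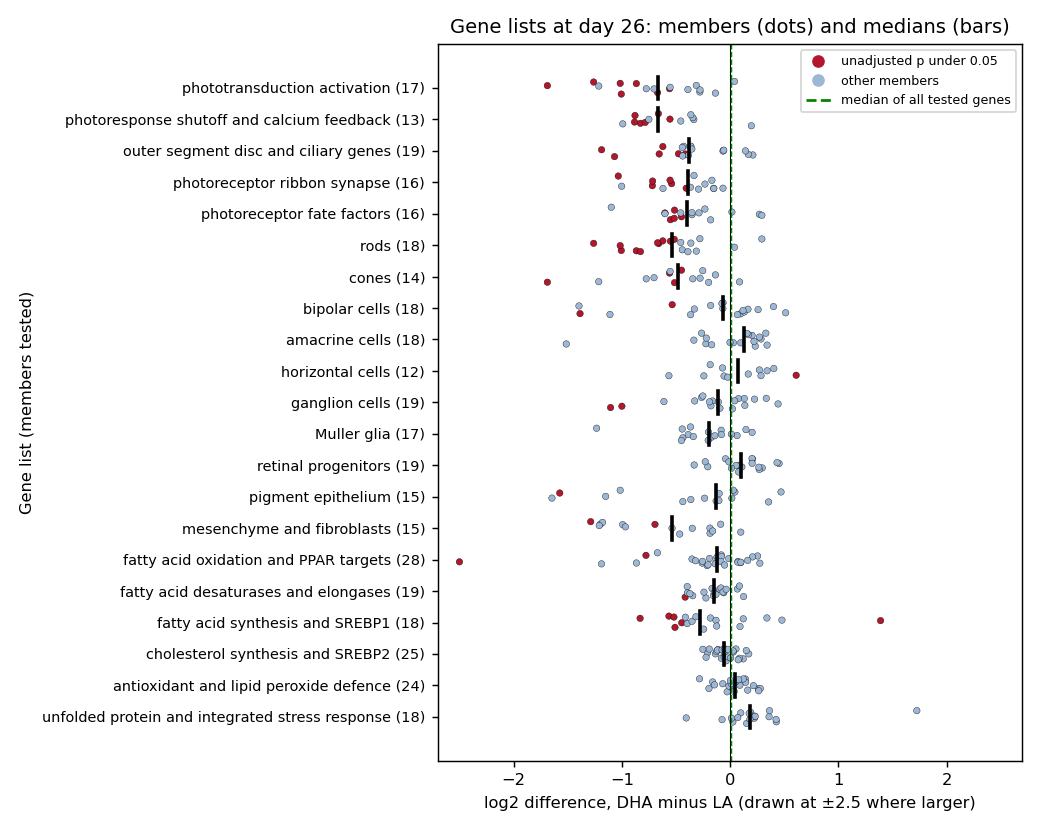
Each dot is a tested member of a gene list at its log2 difference of DHA minus LA (red where the unadjusted p was under 0.05), and the black bar is the list's median, with the median of all tested genes (0.008) as a dashed line. The 7 photoreceptor lists at the top, some of which share members, have medians from −0.67 to −0.38. Mesenchyme and fibroblast genes, also drawn, have a median of −0.54. Amacrine, horizontal and progenitor genes have medians of 0.13, 0.07 and 0.10.

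Among the 10 named genes lower in DHA with the smallest p, several outside the lists are also photoreceptor genes by background knowledge. Nxnl1, the source of a rod-derived cone survival factor, stood at 21.97 and 25.3 CPM in LA, 11.0 and 12.4 in DHA, and 17.0 and 15.9 in BSA (−1.01 [−1.47, −0.56]). Ankrd33, which encodes a repressor of CRX activity, stood at 39.2 and 48.6, 17.6 and 25.2, and 30.1 and 28.2 (−1.04 [−1.52, −0.55]). Nt5e, the surface nucleotidase CD73 used to sort rod precursors, stood at 45.1 and 57.6, 27.2 and 27.6, and 35.9 and 37.8 (−0.91 [−1.31, −0.50]). For these 3 genes both DHA libraries were below BSA and both LA libraries above it. Chrnb4, a nicotinic acetylcholine receptor subunit gene, stood at 34.4 and 45.7 in LA, 19.7 and 17.9 in DHA, and 23.5 and 26.8 in BSA (−1.09 [−1.55, −0.63]). Nfic, a nuclear factor I gene, stood at 55.6 and 55.7, 32.0 and 32.7, and 41.4 and 48.5 (−0.78 [−1.15, −0.41]).

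Of the 10 named genes higher in DHA with the smallest p, none belongs to the photoreceptor lists. Lrch1, which encodes a leucine-rich repeat protein, stood at 17.3 and 10.8 CPM in LA, 26.8 and 32.9 in DHA, and 25.1 and 24.1 in BSA (1.09 [0.54, 1.64]). Slc1a5, a glutamine transporter gene, stood at 21.7 and 29.9, 52.2 and 42.3, and 36.6 and 56.7 (0.87 [0.31, 1.43]). For both genes the 2 LA libraries were below all 4 others. Col20a1, a collagen gene, differed by 0.80 [0.36, 1.23], Serping1, the inhibitor of complement C1, by 0.65 [0.26, 1.04] and Pde2a, a cyclic nucleotide phosphodiesterase, by 0.74 [0.26, 1.22]. Ptpru, a receptor phosphatase, differed by 0.71 [0.26, 1.17] and the kinase gene Prkcd by 0.63 [0.23, 1.04]. Psrc1 and Ckap2, which act on spindle microtubules, differed by 0.84 [0.29, 1.39] and 0.81 [0.27, 1.35], while the cell cycle list of 22 genes had 0 members at an unadjusted p under 0.05 in either direction and a median of −0.07.

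Of the fatty acid genes, Cpt1a had the smallest p. Cpt1a, the gate for entry of long-chain fatty acids into mitochondria and a PPAR target, stood at 91.0 and 99.7 CPM in LA, 60.5 and 50.8 in DHA, and 78.7 and 80.1 in BSA (−0.78 [−1.15, −0.41]). Both DHA libraries were below BSA and both LA libraries above. Of 28 tested members of the oxidation and PPAR list (33 listed), 2 were lower and 0 higher at an unadjusted p under 0.05 (backgrounds 1.79% and 1.08%), with a median of −0.12. Further PPAR targets did not stand apart, with the lipid droplet coat gene Plin2 at 45.9 and 27.8 CPM in LA and 41.5 and 43.5 in DHA (0.21 [−0.31, 0.72]). The value of Plin2 turned to −0.11 without LA replicate 2. The lipase inhibitor gene Angptl4 was at 0.453 to 1.28 CPM over the 6 libraries (−0.87 [−2.23, 0.49]), and the carnitine carrier Slc25a20 differed by −0.35 [−0.80, 0.09]. Pdk4, a PPAR target that restrains glucose oxidation, had at most 11 counts in any library and was not tested.

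**Figure D4:**
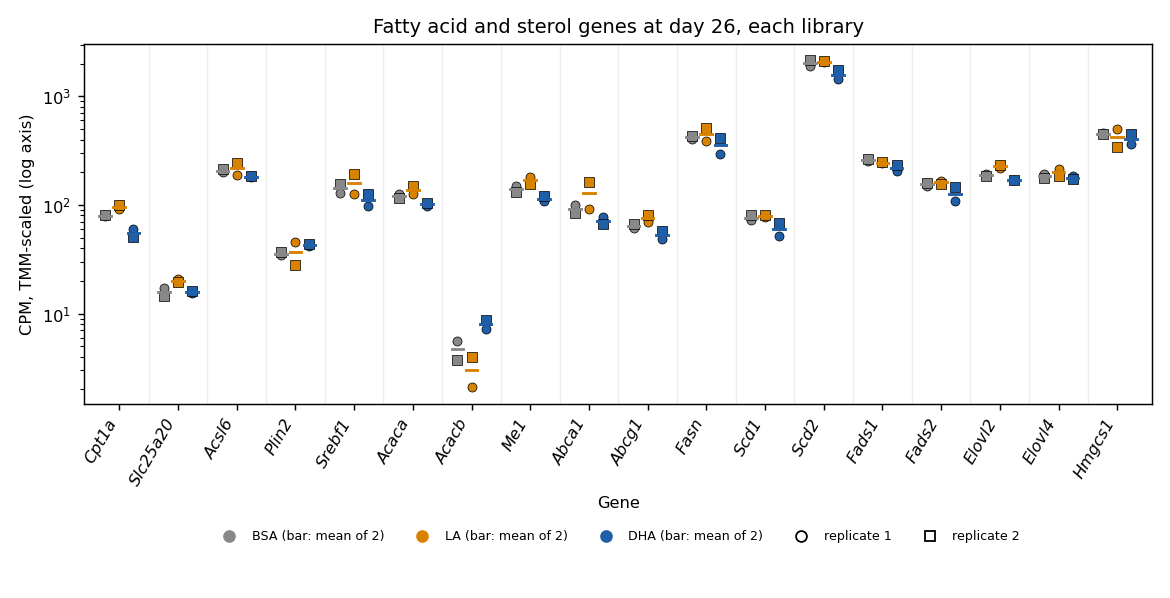
CPM of 18 genes of fatty acid and sterol metabolism on a log axis, drawn as in the plot of photoreceptor genes. Cpt1a in DHA (60.5 and 50.8) lies below BSA and LA, and Acacb in DHA (7.27 and 8.80) lies above them.

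The list of fatty acid synthesis and SREBP1 had 5 of 18 members lower (background 1.79%) and 1 higher (background 1.08%) at an unadjusted p under 0.05. Its median was −0.28, and it lay between −0.14 and −0.20 without LA replicate 1, LA replicate 2 or DHA replicate 1. Srebf1 itself stood at 127 and 192 CPM in LA, 97.9 and 125 in DHA, and 130 and 155 in BSA (−0.52 [−1.03, −0.01]). Acaca, the carboxylase that starts fatty acid synthesis, differed by −0.45 [−0.82, −0.07] and Me1, which supplies NADPH, by −0.57 [−0.95, −0.18]. Acacb, the mitochondrial counterpart of Acaca whose product malonyl-CoA inhibits carnitine palmitoyltransferase, was the higher gene, at 2.09 and 4.01 CPM in LA, 7.27 and 8.80 in DHA, and 5.64 and 3.73 in BSA (1.39 [0.53, 2.25]). The cholesterol exporters Abca1 and Abcg1, targets of LXR, differed by −0.83 [−1.39, −0.27] and −0.51 [−0.89, −0.13]. Abca1 stood at 92.7 and 162 CPM in the 2 LA libraries, so LA replicate 2 alone stood far above BSA (99.8 and 83.9), and DHA stood at 76.8 and 66.6. Fasn, the fatty acid synthase, differed by −0.35 [−0.86, 0.16] with overlapping groups.

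Desaturase and elongase genes lay below 0 in 16 of 19 tested members (20 listed, background 48.7%), with a median of −0.15. At an unadjusted p under 0.05, 1 was lower (background 1.79%). That gene was Elovl2, the elongase that makes the long precursors of DHA, at 219 and 235 CPM in LA, 169 and 171 in DHA, and 195 and 185 in BSA (−0.42 [−0.78, −0.05]). The delta-6 desaturase gene Fads2 stood at 166 and 157, 108 and 146, and 151 and 159 (−0.35 [−0.76, 0.07]). The delta-5 desaturase gene Fads1 differed by −0.15 [−0.54, 0.23] and Elovl4, which builds very long chains in photoreceptors, by −0.17 [−0.55, 0.21]. The stearoyl-CoA desaturase genes Scd1 and Scd2 differed by −0.40 [−0.80, 0.01] and −0.39 [−0.88, 0.10], and both DHA libraries were the lowest of the 6 for each. Genes of uptake, activation and phospholipid incorporation gave 0 of 25 tested members (26 listed) at an unadjusted p under 0.05 and a median of −0.02. Acsl6, which activates DHA in neural cells, differed by −0.26 [−0.67, 0.16], and Mfsd2a, the transporter of DHA as lysophosphatidylcholine, by 0.22 [−0.50, 0.94]. Both intervals include 0.

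Sterol, antioxidant and stress genes held few differences. In cholesterol synthesis, 0 of 25 members had an unadjusted p under 0.05 and the median was −0.05, with the synthase gene Hmgcs1 at 500.1 and 345 CPM in LA and 363 and 451 in DHA (−0.05 [−0.56, 0.45]). In antioxidant and lipid peroxide defence, 0 of 24 members passed that limit and the median was 0.05. The phospholipid peroxidase gene Gpx4 stood at 296 and 204 CPM in LA and 204 and 299 in DHA (0.01 [−0.54, 0.56]); the groups overlapped fully. The heme oxygenase gene Hmox1 differed by 0.16 [−0.50, 0.83] and the cystine transporter gene Slc7a11 by 0.05 [−0.58, 0.69]. For Hmgcs1, Gpx4, Hmox1 and Slc7a11 the sign turned when single libraries were left out. Of 18 genes of the unfolded protein and integrated stress response 16 lay above 0 (51.3% of all genes did), with a median of 0.19 (0.02 without LA replicate 2) and 0 at an unadjusted p under 0.05. Their C/EBP-family member Ddit3 stood at 68.9 and 44.7 CPM in LA and 70.4 and 75.7 in DHA (0.36 [−0.14, 0.87]). Of 13 tested eicosanoid genes (20 listed), 1 was higher in DHA at an unadjusted p under 0.05 (background 1.08%). This was Pla2g4a, the phospholipase that releases polyunsaturated fatty acids. Pla2g4a stood at 2.67 and 3.59 CPM in LA, 9.10 and 6.30 in DHA, and 3.06 and 8.37 in BSA (1.29 [0.27, 2.32]). The prostaglandin D synthase gene Ptgds differed by −0.14 [−1.07, 0.78].

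Markers of cells outside the neural retina also differed between the libraries. The 15 mesenchyme and fibroblast genes had a median of −0.54 (−0.19 without LA replicate 1, −1.01 without LA replicate 2). Of these genes 14 lay below 0 (background 48.7%) and 2 were lower at an unadjusted p under 0.05 (background 1.79%). Their summed level was 209 and 144 CPM in LA, 159.7 and 98.7 in DHA, and 167 and 101 in BSA. The collagen gene Col3a1 stood at 20.1 and 15.4 CPM in LA, 9.45 and 5.05 in DHA, and 10.0 and 2.60 in BSA (−1.29 [−2.44, −0.14]), and Col1a1 at 20.3 and 14.3, 13.5 and 3.92, and 10.2 and 3.73 (−0.99 [−2.22, 0.24]). Replicate 1 was the higher library in all 3 groups for the mesenchyme sum. Pigment epithelium genes summed to 679.5 and 282 CPM in LA, 365 and 366 in DHA, and 497 and 198 in BSA, with Tyr, the melanin synthesis enzyme, at 16.0 and 2.89 in LA and 7.33 and 11.9 in DHA (0.03 [−1.71, 1.76]). Rpe65, a defining enzyme of that layer, had 0 counts in all 6 libraries. Forebrain and other neural tube genes summed to 12.0 and 52.6 CPM in LA, 7.501 and 15.2 in DHA, and 13.1 and 14.4 in BSA. Dlx1, a homeobox gene of forebrain and inner retinal neurons, accounted for much of this at 3.26 and 30.6 CPM in LA against 1.24 and 2.16 in DHA and 2.40 and 4.70 in BSA (−3.31 [−5.22, −1.40]). Muscle genes gave 3 of 11 tested (15 listed) lower at an unadjusted p under 0.05 (background 1.79%). Among them was Myocd, a coactivator of smooth muscle genes, which was near the floor. Myocd stood at 0.639 and 2.30 CPM in LA, 0.236 and 0.397 in DHA, and 1.26 and 1.19 in BSA. LA replicate 1 was thus below both BSA libraries for Myocd. Endothelial genes had a median of −0.58 (0.001 without LA replicate 2) over 6 tested members (12 listed), with 4 below 0 and 2 above. At an unadjusted p under 0.05, 1 endothelial gene was lower (background 1.79%). Their summed level was 202 and 252 CPM in LA, 184 and 163 in DHA, and 185 and 213 in BSA. Kdr, a VEGF receptor gene, made up most of that sum at 187 and 231 in LA, 166 and 147 in DHA, and 170.4 and 196 in BSA (−0.42 [−0.83, −0.01]), while the defining endothelial gene Cdh5 had at most 2 counts in any library. LA replicate 1 held more mesenchyme and pigment cell transcripts and LA replicate 2 more forebrain transcripts, while photoreceptor sums were high in both. Whether these other tissues take part in the photoreceptor values was not tested.

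The medians of other retinal cell classes lay nearer 0 than those of the photoreceptor lists. Medians were −0.07 for 18 tested bipolar genes, 0.13 for 18 amacrine genes, 0.07 for 12 horizontal genes, −0.11 for 19 ganglion cell genes, −0.20 for 17 Muller glia genes and 0.10 for 19 progenitor genes. Of the Muller glia genes 13 lay below 0 (background 48.7%), and of the progenitor genes 14 lay above 0 (background 51.3%). The groups did not overlap for 6 progenitor genes higher in DHA (background 11%) and 2 lower (background 12.9%). The sign of the amacrine and progenitor medians turned without DHA replicate 2 (−0.28 and −0.04), that of the horizontal and Muller glia medians without LA replicate 1 (−0.06 and 0.23), and that of the ganglion cell median without DHA replicate 1 (0.11). The bipolar median turned without LA replicate 1 (0.006). Among bipolar genes, 2 were lower at an unadjusted p under 0.05 (background 1.79%) and 0 higher (background 1.08%). Cabp5, a calcium-binding protein, differed by −1.39 [−2.33, −0.44] and Prkca, a protein kinase C of rod bipolar cells, by −0.54 [−0.99, −0.08]. Bhlhe23, a factor of rod bipolar cells, had at most 8 counts and was not tested. Of the ganglion cell genes 11 lay below 0 and 8 above, and 2 were lower at an unadjusted p under 0.05 (background 1.79%). These were the glutamate transporter gene Slc17a6 (−1.10 [−1.90, −0.31]) and the RNA-binding protein gene Rbpms2, at 5.23 and 8.35 CPM in LA against 3.96 and 2.84 in DHA. The paralog Rbpms, named after its values were seen, went the other way, at 13.8 and 10.3 CPM in LA against 14.7 and 18.1 in DHA (0.44 [−0.12, 1.01]). Slc12a7, a potassium-chloride cotransporter gene (0.61 [0.13, 1.09]), was the 1 of 12 horizontal cell genes higher at an unadjusted p under 0.05 (background 1.08%). The Notch ligand gene Dll4 differed by 0.53 [0.05, 1.01], at 18.0 and 19.3 CPM in LA, 29.0 and 24.9 in DHA, and 21.97 and 30.5 in BSA. In the glycolysis list, the hexokinase gene Hk1 (−0.47 [−0.90, −0.04]) was the 1 of 27 genes lower at an unadjusted p under 0.05 (background 1.79%). The orphan receptor gene Gpr149 stood at 2.03 and 1.87 CPM in LA, 0.591 and 0.397 in DHA, and 0.600 and 0.339 in BSA, with DHA level with BSA (−1.97 [−3.14, −0.80]).

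DHA and LA were also compared at day 32 with FGF1, in 2 libraries per fatty acid that share none with day 26 and have like depth. Replicate 3 of that LA group was shallower (11017149 counts) and was left out, as was the shallower replicate 3 of BSA (11699980 counts). There the photoreceptor genes lay on the other side of 0, with 46 of 57 above 0 (49.8% of all genes did) and a median of 0.45. The difference between the 2 contrasts was tested in 1 model over the 12 deeper libraries, and 0 of 20111 genes passed (edgeR QL, Benjamini-Hochberg), with 689 (3.43%) higher and 583 (2.9%) lower at an unadjusted p under 0.05. DESeq2 called 63 genes, 46 of them higher. Of the photoreceptor genes, 33 of 57 had a higher difference at day 32 at an unadjusted p under 0.05 and 0 had a lower one, and the smallest adjusted p among them was 0.493. Cngb1 differed by −1.01 at day 26 and 0.55 at day 32, Rcvrn by −0.88 and 0.79, and Nrl by −0.55 and 0.67. Cngb1 had the smallest p at day 26, a choice that favours a larger difference there than in other libraries. The rod arrestin gene Sag stayed below 0, at −0.83 and −0.29. At day 32, 17 of 18 rod genes and 25 of 25 shared genes lay above 0. Of the cone genes 4 of 14 did, with a median of −0.30, and Opn1sw differed there by −1.49 and Gnat2 by −0.98. Day 32 also differs from day 26 in FGF1 and in serum, B27 and amino acids in the medium, so age and medium cannot be told apart.

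**Figure D5:**
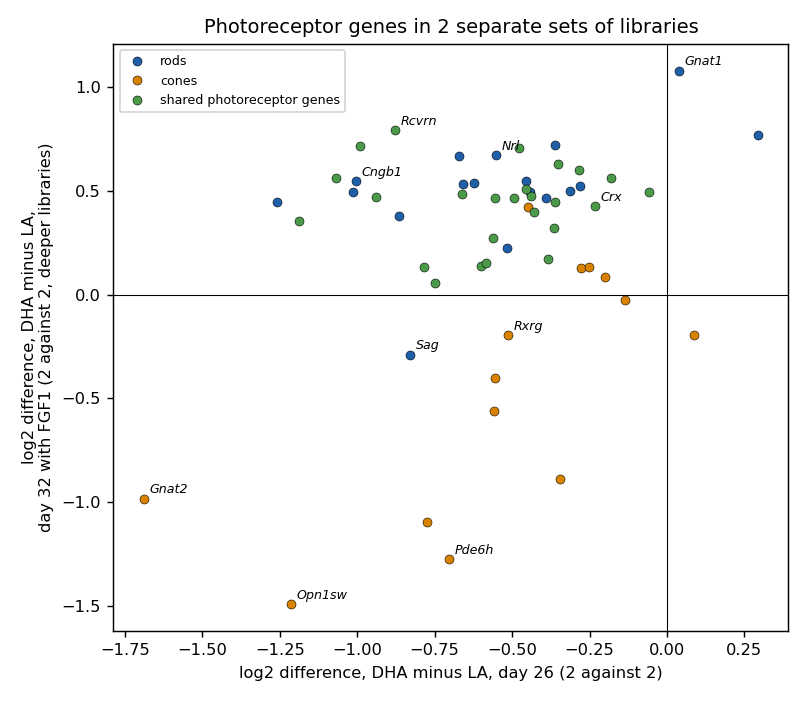
Log2 difference of DHA minus LA of 57 photoreceptor genes at day 26 (horizontal axis) and at day 32 with FGF1 (vertical axis), coloured by list. Most rod (blue) and shared (green) genes lie left of 0 and above 0. Of 14 cone genes (orange), 4 lie above 0 at day 32, while others, such as Opn1sw at −1.21 and −1.49, lie below 0 on both axes.

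These genes were described further by the contrast of BSA at day 32 with FGF1 against BSA at day 26. The contrast sets only BSA libraries against each other, but its filter and spread come from the fit of 12 libraries that holds the DHA and LA libraries too. In it 854 of 20111 genes (4.25%) were higher and 519 (2.58%) lower at an adjusted p under 0.05 (edgeR QL). Of 337 genes lower in DHA at an unadjusted p under 0.05, 98 (29.1%) were among those higher at day 32, where 4.11% of all genes tested in both were. These 98 were 12.6% of the 778 genes higher at day 32, and 6 of the 337 were lower there. Of 204 genes higher in DHA, 0 were higher at day 32 and 24 (11.8%) were lower, where 2.74% of all genes were. Photoreceptor genes as such gave 23 of 57 higher and 8 lower, with a median of 1.61 for rod genes and −0.93 for cone genes. In this comparison too, day, FGF1 and medium changed together.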

How the data were processed

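RNA was sequenced as poly(A) libraries from retinal organoids, and samples were grouped by the day and supplement in their labels. The deposited gene table holds estimated counts made by the authors; the submitters' processing notes name Trimmomatic 0.36, kallisto 0.45.0, edgeR and GRCm38.p6, without their settings. The deposited CPM and transcript tables were not used. Here the expected counts were rounded and genes were filtered with filterByExpr (minimum count 10) over the 6 day 26 libraries. Library sizes were scaled by TMM, and edgeR 4.0.16 (R 4.3.3) fitted 1 mean per group with the quasi-likelihood test and Benjamini-Hochberg adjustment over 18939 genes. With 2 libraries per group, 3 residual degrees of freedom and 6.78 prior ones set the intervals (95%). DESeq2 1.42.0, limma 3.58.1 and other scalings, filters and sample sets were alternatives. The scripts were tested on simulated data. The genes named were the 10 per direction with the smallest unadjusted p, a mean level not below 0 on the log2 CPM scale and an established symbol, 40 lead genes, members with the smallest p of each list, and further members of the photoreceptor, fatty acid, cholesterol and antioxidant lists. Members, lists and tests were chosen with earlier results of these data known. Genes with identical copies in the annotation can share reads; they count in their lists but are not named. Figures were drawn with matplotlib 3.10.9. Some genes of the lists are not reported here.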

Additional observations from a re-analysis of the deposited data

How the results depend on the processing

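With 0 genes past the threshold for DHA against LA, other settings moved this count to 6 without the filter on low counts (1 higher, 5 lower), to 3 with DESeq2 and to 1 with the DHA and LA libraries only. Leaving out each day 26 library in turn, it ranged from 0 to 5, the 5 arising without LA replicate 1. The count at an unadjusted p under 0.05 (543) became 996 without the filter, 333 with limma voom and 103 with all 23 libraries. Leaving out single libraries gave 477 to 1437, with 1437 (863 higher, 574 lower) without LA replicate 1 and 939 without DHA replicate 2. DHA against BSA gave 3 genes without the filter and 0 to 1 without single libraries. The difference between day 32 and day 26 gave 332 genes without the filter, 63 with DESeq2, and 0 to 1 without single libraries. Fits on the DHA and LA libraries only give no value for contrasts with BSA.

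The labels do not say whether replicate numbers pair the samples, and 2 libraries per group cannot settle it. Deviations of same-numbered libraries correlated at −0.138 for LA and DHA, 0.234 for LA and BSA and −0.0117 for DHA and BSA over 18939 genes. With the replicate block, 0 genes passed for each of the 3 day 26 contrasts and for the difference between days, and 524 had an unadjusted p under 0.05 for DHA against LA. A crossed pairing, chosen after seeing the data, gave 1 and 676.

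Of 102 named genes, 89 kept their sign under every setting that was run, and 16 of 39 list medians did. Many of these genes were named for a small p in the same libraries, which favours a kept sign, so the count of genes is no test of stability. Leaving out single libraries gave, as lowest and highest log2 difference, −2.10 and 0.74 for Opn1sw, −0.35 and 0.58 for Gnat1, −0.30 and 0.49 for Abca4, −0.45 and 0.24 for Bsn, −0.76 and 0.21 for Cep290, −0.27 and 0.17 for Rpgr, −0.11 and 0.61 for Plin2, −0.30 and 0.24 for Hmgcs1, −0.24 and 0.71 for Hmox1, −0.23 and 0.30 for Slc7a11, −0.29 and 0.30 for Gpx4, −0.69 and 0.73 for Ptgds and −0.74 and 1.74 for Tyr. The value was −0.006 for Gpx4 with the 12 deeper libraries, and −0.020 for Gpx4 and −0.035 for Tyr with a GC offset. For Ptgds it was 0.028 with limma voom, 0.011 with the replicate block and 0.006 with the crossed pairing. The cause was not tested.

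Depth was alike in the 6 libraries. With 2 libraries per group, the spread between replicates limits what can be detected.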
